A study of Mus musculus with 12 samples.

Results

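Expression of 10 genes was followed in the hippocampus of mice treated with the convulsant pilocarpine: the cold-inducible RNA-binding protein genes Rbm3 and Cirbp, and the heat-shock chaperone genes Hspa1a, Hspa1b, Hspa8, Hspa5, Hsph1, Dnajb1, Hspb1 and Hspe1. Members were taken by gene symbol in the platform annotation, with the probe set of the highest mean over 12 arrays kept for each gene. Of the 10 genes, 9 had a probe set of their own, among 19938 genes with such a probe set on the array. Hspa1b was measured only through a probe set that it shares with Hspa1a. Rbm3 and Cirbp were chosen from their values in mutants given pilocarpine, where they were lower than in mutant controls. Their values in that comparison, and in any that shares its arrays, are therefore given as a description without a test. The other members and the gene lists used below were chosen with earlier results of these data known. Counts of them beside shares of all probe sets are therefore a description and not a test of the set.

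The arrays came from 4 groups of 3 mice, 1 Affymetrix Mouse Gene 1.0 ST array per mouse. Heterozygous mice (Srf loxp/+; CaMKCreERT2), called WT or Control in the labels, kept an intact Srf allele. Srf mutants (Srf loxp/loxp; CaMKCreERT2) lost both, by a tamoxifen-inducible Cre under the Camk2a promoter, which acts in glutamatergic forebrain neurons and leaves Srf in other cells. Srf encodes serum response factor, a transcription factor of activity-induced genes. The mice were C57/Bl6 animals of either sex, carried at least 1 Cre allele, received tamoxifen and were adults of 7 to 10 weeks. Controls received Ringer solution. Heterozygous mice given 335 or 350 mg/kg pilocarpine reached status epilepticus (SE), continuous seizure activity, and were analysed after 40 min of it. The labels give the mutants treated with pilocarpine as having seizures and do not say whether they reached SE. The study's methods and names of its arrays place these 3 mice among mutants without SE, and its mutants with SE are not analysed here. Genotype and seizure state then differ together between the pilocarpine groups and cannot be told apart. Srf itself lay between 8.80 and 8.96 (log2) on the 6 mutant arrays and between 9.53 and 10.27 on the 6 heterozygous arrays. The excitatory neuron genes Slc17a7 (13.28 to 13.52) and Camk2a (13.88 to 14.02) were high on every array. Whole tissue was measured, so fewer cells of a type and less RNA per cell cannot be told apart.

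Rbm3 and Cirbp are small proteins with an RNA recognition motif whose mRNAs are known to rise when cells are mildly cooled and to fall when they are warmed. Heat-shock chaperones behave in the opposite way: misfolded protein releases heat shock factor, which binds repeats of GAA in their promoters. Hspa5 belongs to the endoplasmic reticulum, where unfolded protein induces it through another promoter element. HSP70 proteins (Hspa1a, Hspa1b, Hspa8, Hspa5) fold clients in a cycle driven by ATP, J-domain proteins such as Dnajb1 hand them clients, HSP110 (Hsph1) exchanges their nucleotide, Hspb1 is a small heat-shock protein that holds clients, and Hspe1 is the lid of the mitochondrial chaperonin.

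Promoters of 5 members are shown as examples of the known elements, to let the letters be set beside the levels. RefSeq (GRCm38.p6) windows were held for 8 of the 10 genes. The 250 bases before the most upstream start are printed 5′ to 3′ on the gene's strand, with matches in capitals. They are chr10:80167589-80167838 on the plus strand for Cirbp, chr17:34972157-34972406 on the minus strand for Hspa1a, chr5:149636337-149636586 on the minus strand for Hsph1, chr2:34771840-34772089 on the plus strand for Hspa5 and chr1:55087898-55088147 on the plus strand for Hspe1.
Cirbp: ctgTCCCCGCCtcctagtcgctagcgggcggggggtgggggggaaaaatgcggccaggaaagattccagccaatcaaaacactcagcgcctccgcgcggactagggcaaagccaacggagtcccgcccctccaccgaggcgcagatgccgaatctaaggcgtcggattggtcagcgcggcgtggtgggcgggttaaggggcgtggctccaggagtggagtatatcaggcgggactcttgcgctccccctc
Hspa1a: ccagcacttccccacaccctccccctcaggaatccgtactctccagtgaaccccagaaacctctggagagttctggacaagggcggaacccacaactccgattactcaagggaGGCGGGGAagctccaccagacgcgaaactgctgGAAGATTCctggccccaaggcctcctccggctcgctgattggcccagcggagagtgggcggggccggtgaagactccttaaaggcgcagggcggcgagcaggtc
Hsph1: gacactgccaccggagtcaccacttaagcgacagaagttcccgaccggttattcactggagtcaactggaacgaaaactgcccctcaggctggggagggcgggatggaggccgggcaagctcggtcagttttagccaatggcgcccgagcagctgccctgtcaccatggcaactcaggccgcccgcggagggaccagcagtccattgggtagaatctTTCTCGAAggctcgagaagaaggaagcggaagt
Hspa5: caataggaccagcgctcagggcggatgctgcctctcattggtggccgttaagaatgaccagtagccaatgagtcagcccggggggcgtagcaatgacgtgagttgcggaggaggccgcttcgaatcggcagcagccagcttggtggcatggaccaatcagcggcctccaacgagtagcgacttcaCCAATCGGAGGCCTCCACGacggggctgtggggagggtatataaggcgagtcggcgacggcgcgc
Hspe1: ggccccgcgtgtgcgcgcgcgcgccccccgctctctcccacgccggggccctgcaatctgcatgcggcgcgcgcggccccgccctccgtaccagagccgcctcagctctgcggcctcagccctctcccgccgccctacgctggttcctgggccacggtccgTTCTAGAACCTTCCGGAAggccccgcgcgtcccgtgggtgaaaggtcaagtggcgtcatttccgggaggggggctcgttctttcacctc

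The letters searched on both strands were GAANNTTC and TTCNNGAA (pairs of heat shock units), GAANNTTCNNGAA (3 units, which holds both pairs), TCCCCGCC (mild-cold response element) and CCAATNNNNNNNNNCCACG (endoplasmic reticulum stress element). Over all 32851 windows of the same 250 bases, 6.69%, 7.17%, 0.466%, 4.64% and 0.113% held them, in that order. Cirbp held a mild-cold element, 247 to 240 bases before the start. Hspa1a held a GAANNTTC pair 104 to 97 bases before the start, and also a mild-cold element on the other strand, and the Hspa1b window, not printed, held both at the same positions. Hsph1 held a TTCNNGAA pair 33 to 26 bases before the start. Hspa5 held an endoplasmic reticulum stress element 65 to 47 bases before it. Hspe1 held overlapping 3-unit matches, 89 to 72 bases before the start. Hspb1, whose window is not printed, held 2 GAANNTTC pairs and Dnajb1 held no match in its window. These matches describe letters and are not shown to be bound sites. The Hspa1a and Hspa1b windows differed at 4 of their full 300 bases, and the pair of genes is known for nearly identical transcripts, so the Hspa1a probe set may also read Hspa1b.

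Rbm3 was higher on every heterozygous SE array than on every heterozygous control. In mutants given pilocarpine, where it was chosen for its lower level, treated and control arrays did not overlap either. Its log2 levels were 12.10, 12.05 and 12.01 in heterozygous controls and 12.39, 12.35 and 12.25 in SE. They were 12.15, 12.31 and 11.86 in mutant controls and 11.44, 11.40 and 11.70 in mutants given pilocarpine. The SE arrays thus held the highest group mean and the pilocarpine mutants the lowest. The heterozygous difference was 0.28 on the log2 scale (standard error 0.102, 95% interval 0.06 to 0.50, 1.21-fold, n = 3 each), which did not pass (limma, adjusted p = 0.109). It passed when the fit held only the heterozygous arrays (adjusted p = 0.0119) or left out mutant control replicate 3 (adjusted p = 0.0355). The other probe sets of Rbm3 gave 0.29 (adjusted p = 0.0895) and 0.31 (adjusted p = 0.0504). In mutants Rbm3 was 1.51-fold lower with pilocarpine (−0.60, standard error 0.102), and its other probe sets gave −0.60 and −0.59.

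Rbm3 is X-linked, and the sexes were not balanced over the groups. Xist, the RNA that marks an inactive X chromosome in females, was above 9 (log2) on 1 of 3 heterozygous control arrays, 0 of 3 SE arrays, 2 of 3 mutant control arrays and 1 of 3 arrays of mutants given pilocarpine. With Xist in the fit the heterozygous difference of Rbm3 was 0.29 (adjusted p = 0.125).

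Cirbp showed no detectable change in SE. Its log2 levels were 10.18, 10.10 and 10.09 in heterozygous controls and 10.39, 10.18 and 10.08 in SE, and these groups overlapped. They were 10.20, 10.47 and 9.93 in mutant controls and 9.59, 9.56 and 9.79 in mutants given pilocarpine, where all treated arrays lay below all controls. The heterozygous difference was 0.093 (standard error 0.117, 95% interval −0.16 to 0.35, n = 3 each, limma, adjusted p = 0.706). The mutant difference that chose the gene was −0.56 (standard error 0.117), a 1.47-fold lower level. Mutant control replicate 3 was the lowest of its group for both genes, and pilocarpine replicate 3 the highest of its own. Without that control array the mutant differences were −0.719 for Rbm3 and −0.691 for Cirbp. As descriptions, the mutant response less the heterozygous one was −0.87 for Rbm3 and −0.65 for Cirbp.

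**Figure D1:**
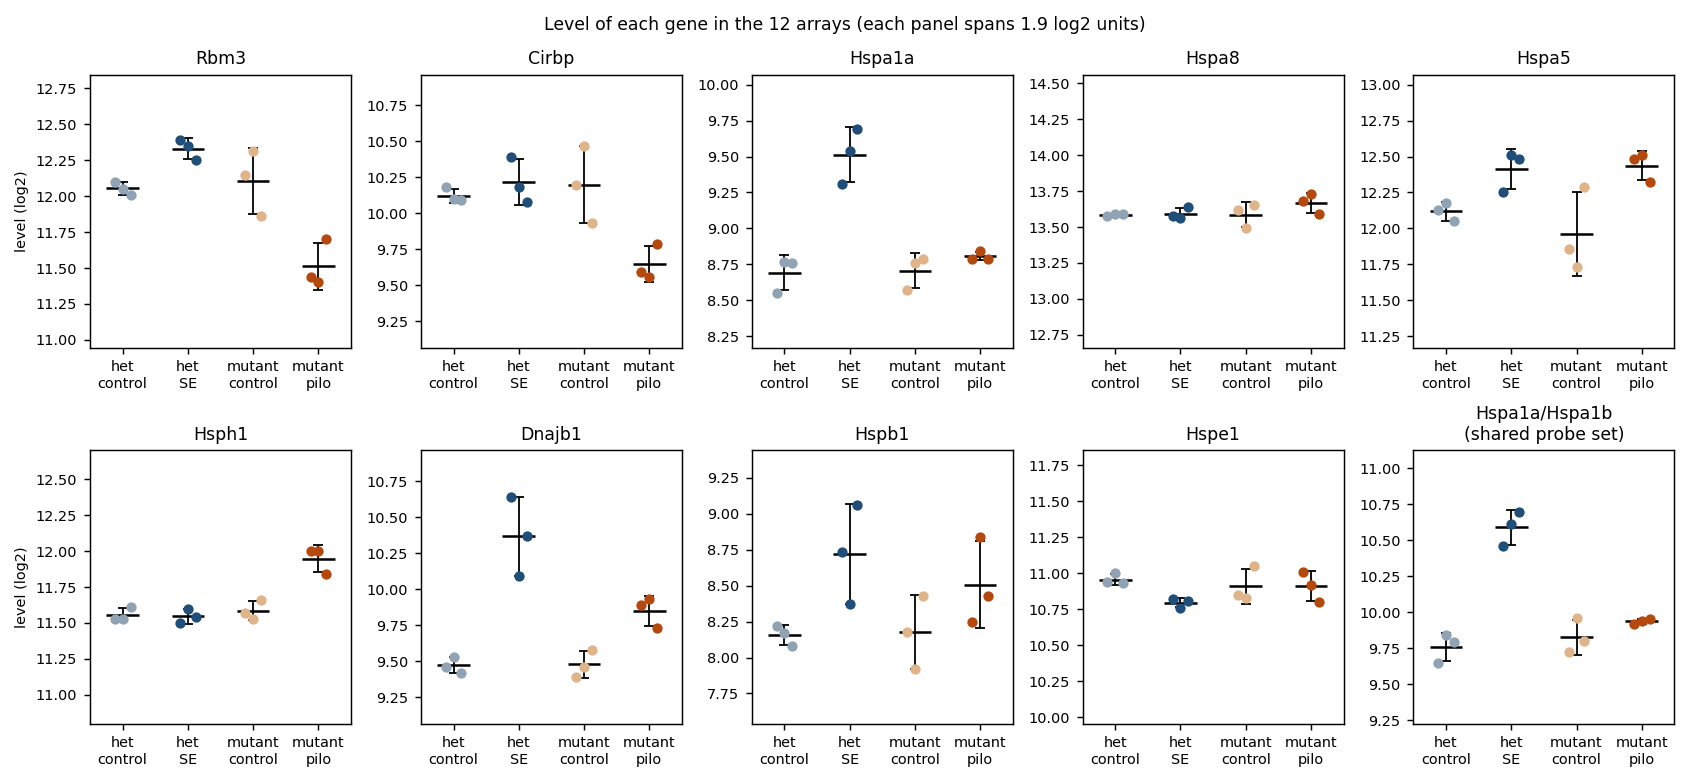
Log2 level of the 9 genes with a probe set of their own and of the shared Hspa1a/Hspa1b probe set on the 12 arrays (y axis, log2 level, each panel 1.9 log2 units high). Points are arrays, lines the mean and bars the SD of 3 mice. Rbm3 and Cirbp are lowest in mutants given pilocarpine, Hspa1a and Dnajb1 highest in heterozygous SE and Hsph1 highest in mutants given pilocarpine.

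Among the chaperones, Hspa1a and Dnajb1 rose in heterozygous SE, 2 of the 7 measured alone, where 5.08% of the 23410 probe sets with a gene rose. None of the 7 fell (limma, 1 at an unadjusted p under 0.05), against 6.93% of all probe sets. Hspa1a, the stress-inducible cytosolic HSP70, stood at 8.55, 8.77 and 8.76 in heterozygous controls and at 9.31, 9.54 and 9.69 in SE. All SE arrays lay above all controls. The difference was 0.82 (standard error 0.091, 1.77-fold, adjusted p = 6.74e-05). The probe set shared with Hspa1b rose alike, from 9.65, 9.84 and 9.79 to 10.46, 10.61 and 10.70 (0.83, standard error 0.074, adjusted p = 9.62e-06).

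Dnajb1, the J-domain partner that loads clients on HSP70, rose from 9.46, 9.53 and 9.42 in heterozygous controls to 10.64, 10.09 and 10.37 in SE. Its difference was 0.90 (standard error 0.110, 1.87-fold, adjusted p = 0.000145), and the SE arrays were more spread (SD 0.275) than the controls (SD 0.057). Hspb1 stood at 8.22, 8.17 and 8.08 in controls and at 8.73, 8.37 and 9.06 in SE, again without overlap. Its difference of 0.57 (standard error 0.178, 95% interval 0.18 to 0.96) did not pass (adjusted p = 0.0601), while the other Hspb1 probe set did (0.59, adjusted p = 0.0483). The brighter probe set passed without heterozygous SE replicate 2 (0.74, adjusted p = 0.0162), without mutant pilocarpine replicate 2 (adjusted p = 0.0382), with array weights (adjusted p = 0.0168) and in a fit of the heterozygous arrays alone (adjusted p = 0.049).

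Hspa5, the HSP70 of the endoplasmic reticulum, stood at 12.13, 12.18 and 12.05 in heterozygous controls and at 12.25, 12.51 and 12.48 in SE. The difference of 0.29 (standard error 0.120, 95% interval 0.03 to 0.55) did not pass (adjusted p = 0.154), but did without mutant control replicate 3 (adjusted p = 0.0288), in a fit of the heterozygous arrays alone (adjusted p = 0.0431) and with array weights (adjusted p = 0.0499). Hspe1 was lower on every SE array (10.82, 10.76 and 10.81) than on every control (10.94, 11.00 and 10.93). Its difference of −0.17 (standard error 0.065) did not pass (adjusted p = 0.134), except in a fit of the heterozygous arrays alone (adjusted p = 0.0469). Hsph1 and the constitutive HSP70 gene Hspa8 showed no detectable change in SE, with differences of −0.0089 (95% interval −0.13 to 0.11, adjusted p = 0.952) and 0.0055 (95% interval −0.11 to 0.12, adjusted p = 0.967). The chaperones thus differed among themselves in SE, from 1.87-fold higher to slightly lower.

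In mutants given pilocarpine a different chaperone passed the test. Hsph1 rose, 1 of the 7, where 0.871% of all probe sets rose. None of the 7 fell (limma, 0 at an unadjusted p under 0.05), against 0.965% of all. Relative to its mean over the 12 arrays (11.66), the log2 level of Hsph1 stood at −0.09, −0.13 and 0.00 in mutant controls and at 0.34, 0.34 and 0.18 with pilocarpine. On the heterozygous arrays it lay between −0.16 and −0.05, so the 3 pilocarpine mutants stood above all 9 others. The difference was 0.36 (standard error 0.056, 1.28-fold, adjusted p = 0.00686). It did not pass in a fit of the mutant arrays alone (adjusted p = 0.0575).

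Hspa5 stood at 11.86, 11.73 and 12.29 in mutant controls and at 12.48, 12.51 and 12.32 with pilocarpine. The difference of 0.48 (standard error 0.120, 1.39-fold, 95% interval 0.22 to 0.74) did not pass (adjusted p = 0.0685). Without mutant control replicate 3, the highest of the controls, it was 0.64 and passed (adjusted p = 0.00381), as it did with array weights (adjusted p = 0.0281). Dnajb1 stood at 9.39, 9.46 and 9.58 in mutant controls and at 9.89, 9.93 and 9.73 with pilocarpine, without overlap. Its difference of 0.38 (standard error 0.110, 95% interval 0.14 to 0.61, adjusted p = 0.11) passed only without heterozygous SE replicate 1 (adjusted p = 0.0393) or 2 (adjusted p = 0.0385), whose spread enters the fit, or with array weights (adjusted p = 0.0494).

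Hspa1a, by contrast, stood at 8.57, 8.76 and 8.79 in mutant controls and at 8.79, 8.84 and 8.79 with pilocarpine, a difference of 0.098 (standard error 0.091, 95% interval −0.10 to 0.30, adjusted p = 0.684). The shared probe set differed by 0.11 (95% interval −0.05 to 0.27, adjusted p = 0.549). Hspb1 overlapped between mutant controls (7.92 to 8.43) and pilocarpine mutants (8.25 to 8.84), with a difference of 0.33 (95% interval −0.06 to 0.72, adjusted p = 0.426). Hspa8 differed by 0.08 (95% interval −0.03 to 0.19, adjusted p = 0.514), its other single-gene probe sets giving 0.076 (95% interval −0.04 to 0.19) and 0.84 (95% interval −0.08 to 1.76, adjusted p = 0.388). Hspe1 differed by 0.0016 (95% interval −0.14 to 0.14, adjusted p = 0.995). The 7 chaperones had a median difference of 0.332 in the mutants and 0.293 in heterozygous SE, where the median over all probe sets was −0.004 and −0.026.

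The mean level of oligodendrocyte markers was lower on the same mutant arrays than in mutant controls. Their mean log2 level over 9 genes lay between 10.31 and 10.77 in mutants given pilocarpine and between 10.82 and 10.87 in mutant controls. It lay between 10.72 and 10.99 in heterozygous controls and between 10.67 and 10.82 in SE. Both heterozygous ranges overlapped that of mutants given pilocarpine. Of the 9, 1 fell (Opalin, a myelin membrane protein, −0.84), where 0.965% of all probe sets did, and the median difference was −0.276. At an unadjusted p under 0.05 (limma), 6 of the 9 were lower and 0 higher. The share of all probe sets at that limit was not counted. In heterozygous SE none of the 9 passed (limma, 0 at an unadjusted p under 0.05), with differences from −0.23 to −0.09 and a median of −0.120. None of the 9 excitatory neuron markers passed in the mutants (limma, 0 at an unadjusted p under 0.05), with a median of −0.005. In heterozygous SE none of them passed either (limma, 0 higher and 2 lower at an unadjusted p under 0.05), with a median of −0.031. The part of these markers in the values of Rbm3, Cirbp and Hsph1 was not tested.

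**Figure D2:**
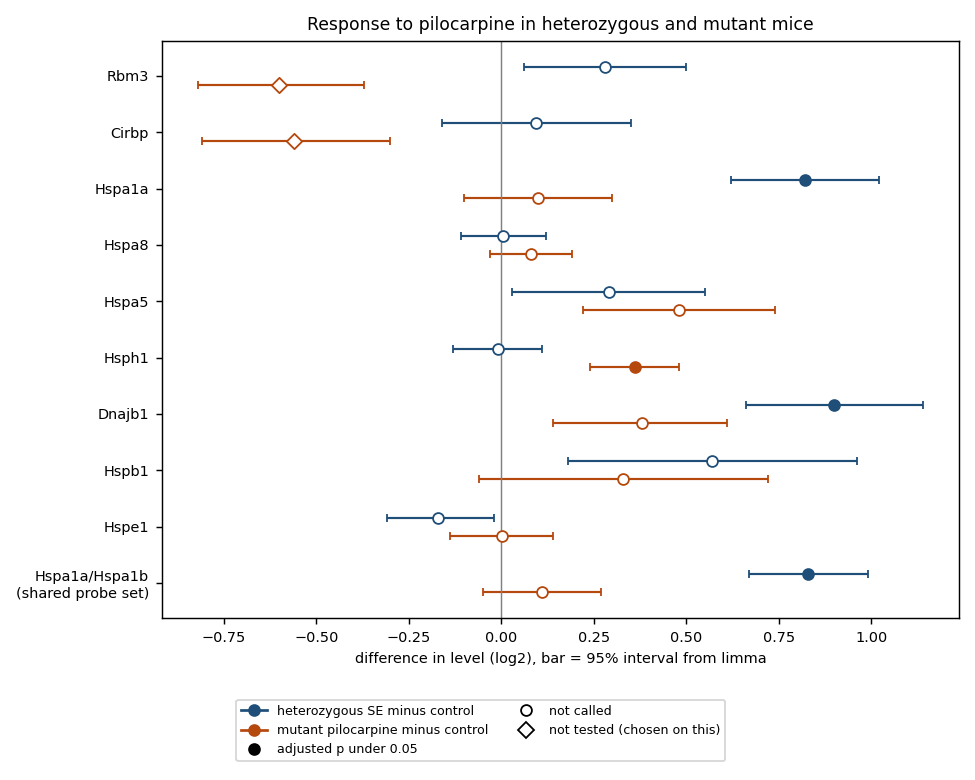
Difference in log2 level between treated and control mice for each gene (x axis) in heterozygous SE (blue) and in mutants given pilocarpine (orange), with 95% intervals from limma. Filled circles passed an adjusted p under 0.05, open circles did not, and diamonds mark the values that chose Rbm3 and Cirbp. Hspa1a (0.82) and Dnajb1 (0.90) rose in SE, and Hsph1 (0.36) rose in the mutants.

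The responses of mutants given pilocarpine and of heterozygous SE mice differed for 2 of the 7 chaperones, in opposite directions. Genotype and seizure state differ together in this comparison. Hspa1a responded less in the mutants, with a difference between the log2 responses of −0.72 (standard error 0.129, adjusted p = 0.00742), 1 gene of the 7 against 2.12% of all probe sets. The shared probe set gave −0.73 (standard error 0.104, adjusted p = 0.00166). The Hspa1a call was lost only without moderation of the variance (adjusted p = 0.052). Hsph1 responded more in the mutants, by 0.37 (standard error 0.080, adjusted p = 0.0228), 1 of the 7 against 1.47% of all probe sets. This call was narrow: leaving out any of 7 of the 12 arrays (mutant control replicates 1 and 2, mutant pilocarpine replicates 1 and 2, heterozygous control replicate 3, heterozygous SE replicates 1 and 3) gave an adjusted p between 0.0522 and 0.0708, with a difference of 0.34 to 0.37. Dnajb1 had a difference of −0.52 (standard error 0.155, 95% interval −0.86 to −0.19) that did not pass (adjusted p = 0.0952), and passed without heterozygous SE replicate 2 (−0.66, adjusted p = 0.0102). For Hspa5 (0.18, 95% interval −0.19 to 0.55), Hspb1 (−0.23, −0.78 to 0.31), Hspe1 (0.17, −0.03 to 0.37) and Hspa8 (0.075, −0.08 to 0.23) the difference did not pass.

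No difference between the control groups was detectable for any chaperone. None of the 7 was called (limma, 0 at an unadjusted p under 0.05), where 0.12% of all probe sets were. The largest difference was that of Hspa5 (−0.16, 95% interval −0.42 to 0.10, adjusted p = 0.753). As a description, Rbm3 and Cirbp differed by 0.056 and 0.077 between mutant and heterozygous controls, and these groups overlapped.

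The 3 arrays of mutants given pilocarpine, whose low Rbm3 and Cirbp chose these genes, had the highest Hsph1 of all 12 arrays, while Hspa1a, Hspa8 and Hspe1 differed there by 0.098, 0.08 and 0.0016 from mutant controls. Mutant control replicate 3, the control with the lowest Rbm3 (11.86) and Cirbp (9.93), had the highest Hspa5 (12.29), Hsph1 (11.66), Dnajb1 (9.58) and Hspb1 (8.43) of its group. Mutant control replicate 2, with the highest Rbm3 (12.31) and Cirbp (10.47), had the lowest Hspa5 (11.73), Hsph1 (11.53) and Hspb1 (7.92). In heterozygous SE Rbm3, Hspa1a, Dnajb1, Hspb1 and Hspa5 were higher, and Hspe1 lower, on every SE array than on every heterozygous control. Of these differences only those of Hspa1a and Dnajb1 passed in limma. The share of all probe sets without such overlap was not counted. These positions are a description over few arrays and were not tested.

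**Figure D3:**
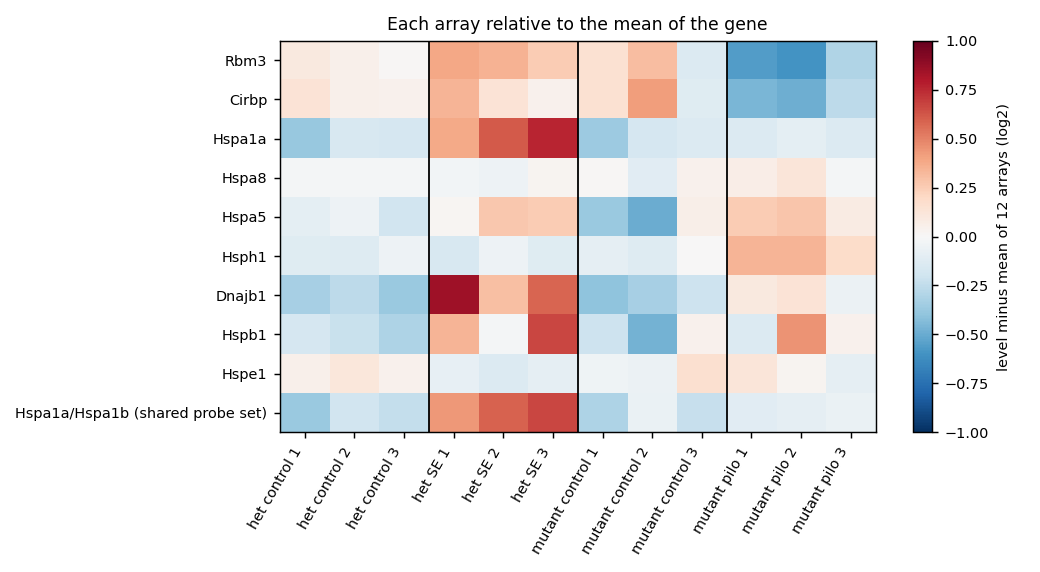
Log2 level of each gene on each array minus its mean over the 12 arrays (colour, red above and blue below the mean), with arrays in columns by group. In mutants given pilocarpine Rbm3 and Cirbp are blue and Hsph1 is red, while in heterozygous SE Rbm3, Hspa1a and Dnajb1 are red and Hspe1 is blue.

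Genes whose levels ran most closely with Rbm3 over the 12 arrays, by Pearson r among 19938 genes, were Pgap6 (0.970), Cirbp (0.951), 4930426L09Rik (0.950), 2900055J20Rik (0.935) and Trmt1 (0.934). For Cirbp they were Tmem150a (0.979), Eml2 (0.967), Rbm3 (0.951), 4930426L09Rik (0.949) and Brca2 (0.940). Cirbp thus ranked 2 among the genes nearest to Rbm3, and Rbm3 ranked 3 for Cirbp. These values include the arrays on which both genes were chosen and share each array's hybridisation, so they carry no test. In the mutants the differences of these genes with pilocarpine were −0.26 for Pgap6, −0.43 for 4930426L09Rik, −0.33 for Tmem150a and −0.29 for Eml2. They were −0.28 for 2900055J20Rik, −0.17 for Trmt1 and −0.12 for Brca2.

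Other chaperones were described from lists chosen by function, beside the shares of all probe sets called, which were 5.08% higher and 6.93% lower in SE and 0.871% higher and 0.965% lower in the mutants. Of 9 further HSP70, HSP90 and HSP110 genes, 1 rose in SE (Hspa14, a ribosome-associated HSP70-like protein, 0.89, adjusted p = 2.72e-06) and 1 fell (Hspa12b, an endothelial HSP70 relative, −0.34, adjusted p = 0.039). Hspa14 also rose in the mutants (0.49, adjusted p = 0.00355), by less than in SE (−0.41, adjusted p = 0.0399, lost without any of 9 arrays). The call of Hspa12b was lost without any of 7 arrays. Of 10 endothelial and pericyte markers 2 fell in SE as well, with a mean level of 8.39 to 8.81 over the SE arrays and 8.70 to 8.80 over the controls, and their part in the Hspa12b value was not tested. The medians of this list were 0.032 in SE and 0.149 in the mutants.

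Of 18 further J-domain genes, 2 rose in SE, against 5.08% of all probe sets, and 1 fell, against 6.93%. Dnajb4, a close relative of Dnajb1, rose from 10.49 to 11.68 on average (1.19, standard error 0.076, adjusted p = 4.74e-07). In the mutants its means were 10.47 and 10.78 (0.30, adjusted p = 0.0679), and the responses differed by −0.89 (adjusted p = 0.00047). Dnajb5 rose in both genotypes, by 0.56 in SE (adjusted p = 0.00077) and by 0.52 in the mutants (adjusted p = 0.00918), with a difference between the responses of −0.042 (95% interval −0.30 to 0.22). Dnaja3, a mitochondrial J-domain protein, fell in SE by 0.26 (adjusted p = 0.0011).

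Of 22 heat shock factors and cochaperones, 1 rose and 1 fell in SE, both below the shares of all probe sets (5.08% and 6.93%). The gene that rose was Bag3, the HSP70 cochaperone of selective autophagy, from 8.02 to 9.23 (1.21, standard error 0.108, adjusted p = 9.93e-06). In the mutants it differed by 0.43 (adjusted p = 0.0665), and the responses differed by −0.78 (adjusted p = 0.0131). Bag5 fell in SE by 0.20 (adjusted p = 0.0129, lost without 1 array). None of the 22 passed in the mutants (limma, 2 higher and 0 lower at an unadjusted p under 0.05). Of 15 chaperonin and mitochondrial genes 0 rose and 2 fell in SE (Clpp, −0.21, and Grpel1, −0.19, lost without any of 5 arrays), and 0 passed in the mutants (limma, 0 higher and 1 lower at an unadjusted p under 0.05). Of 9 further small heat-shock genes none passed in either genotype (limma, at an unadjusted p under 0.05 1 higher and 1 lower in SE, 0 and 1 in the mutants). The median differences of these 3 lists lay between −0.069 and 0.078.

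Of 26 genes of endoplasmic reticulum chaperones and the unfolded protein response, 3 rose in SE, against 5.08% of all probe sets, and 1 fell, against 6.93%. Ppp1r15a, the phosphatase subunit that restores translation after stress, rose from 7.21 to 9.88 (2.66, 6.33-fold, adjusted p = 4.59e-10), and Atf4, a stress transcription factor, by 0.76 (adjusted p = 3.16e-08). Herpud1 rose by 0.19 (adjusted p = 0.0375), and Sel1l, like Herpud1 a factor of protein degradation from this compartment, fell by 0.14 (adjusted p = 0.0483). These calls were lost without any of 4 arrays for Herpud1 and any of 11 for Sel1l. The folding chaperones of this list were not among them. In the mutants Hsp90b1, the HSP90 of this compartment, rose by 0.49 (adjusted p = 0.0326) and Atf4 by 0.17 (adjusted p = 0.0411), while Edem1, which delivers misfolded glycoproteins to degradation, fell by 0.27 (adjusted p = 0.0224). In the mutants the call of Hsp90b1 was lost without any of 7 arrays, that of Atf4 without any of 12 and that of Edem1 without any of 4. The median difference was 0.118 in the mutants and −0.008 in SE. At the adjusted limit 2 of the 26 rose and 1 fell in the mutants, against 0.871% and 0.965% of all probe sets. At an unadjusted p under 0.05 (limma), 11 of the 26 were higher and 2 lower in the mutants. In SE 3 were higher and 2 lower at that limit. The share of all probe sets at the unadjusted limit was not counted.

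**Figure D4:**
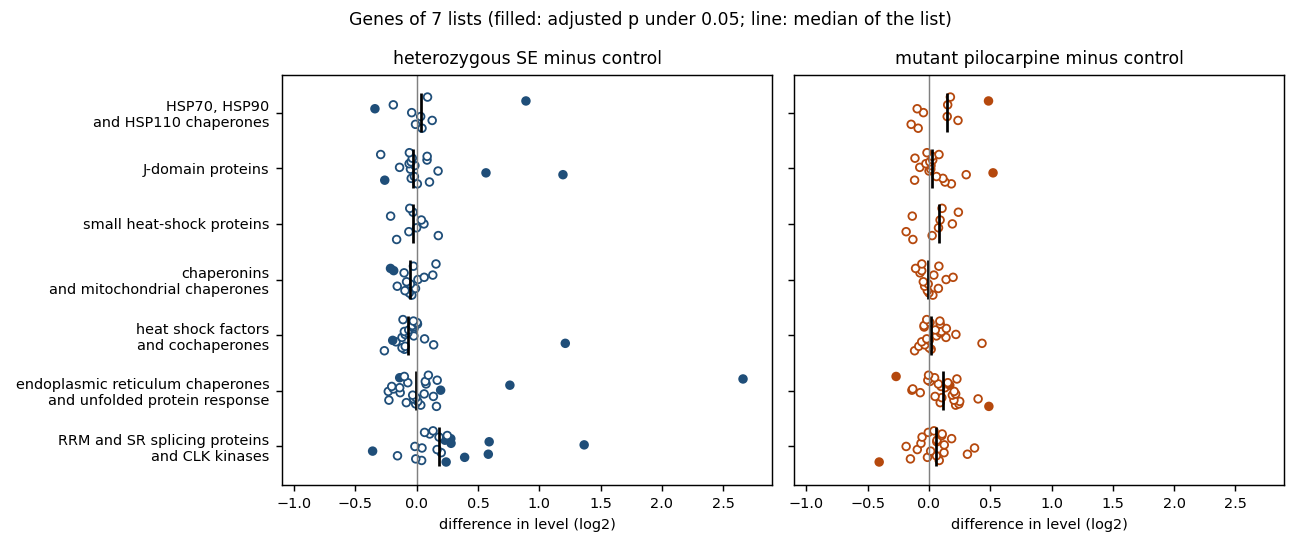
Difference in log2 level (x axis) of the genes of 7 functional lists in heterozygous SE (left) and in mutants given pilocarpine (right). Filled points passed an adjusted p under 0.05 and black lines are list medians. Dnajb4 (1.19), Bag3 (1.21), Clk1 (1.37) and Ppp1r15a (2.66) stand apart in SE, while most chaperones lie near 0 in both panels. The endoplasmic reticulum list has a median of 0.118 in the mutants.

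RNA-binding relatives of Rbm3 and Cirbp were followed as 21 measured genes of RRM and SR splicing proteins and their CLK kinases. In SE 8 rose, against 5.08% of all probe sets, and 1 fell, against 6.93%, with a median of 0.182. The splicing kinase gene Clk1 rose from 8.98 to 10.34 (1.37, adjusted p = 2.59e-07), Clk4 by 0.59 (adjusted p = 0.000154), and the SR protein genes Srsf5 by 0.58 (adjusted p = 0.00123) and Srsf3 by 0.39 (adjusted p = 0.000744). In the mutants Clk1 (0.12, adjusted p = 0.532), Clk4 (0.064, adjusted p = 0.752) and Srsf3 (−0.012, adjusted p = 0.956) did not pass, and their responses differed from those in SE by −1.24, −0.53 and −0.40 (adjusted p = 5.27e-05, 0.013 and 0.0176, the last lost without any of 2 arrays). Mutant controls stood above heterozygous controls by 0.20 for Clk1 and 0.25 for Clk4 (adjusted p = 0.535 and 0.405), which enters these differences in response. Of the 21 genes 0 were called between the control groups, and 7 were higher in mutant controls at an unadjusted p under 0.05 (limma). The share of all probe sets at that unadjusted limit was not counted. Only Rbmx passed in the mutants, an X-linked RNA-binding protein of the spliceosome. It fell by 0.41 in the mutants (adjusted p = 0.0101) and rose by 0.24 in heterozygous SE (adjusted p = 0.0364, lost without any of 6 arrays). Its responses differed by −0.65 (adjusted p = 0.00206). Its means were 9.57 and 9.81 in heterozygous controls and SE, and 9.69 and 9.29 in mutant controls and pilocarpine mutants, the same order of signs as Rbm3.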

How the data were processed

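Hippocampal RNA of 12 mice was hybridised by the authors to Affymetrix Mouse Gene 1.0 ST arrays, summarised in Affymetrix Expression Console and deposited as log2 levels per probe set from the robust multiarray average, which quantile normalizes over arrays. Versions and library files are not given in the sources used here. Array medians lay between 6.78 and 6.86, and 3 mice per group limit the precision. Each of the 12 arrays matched best the array of its own name in the authors' table of the same arrays (1849 accessions). The GEO platform annotation names a gene for 23410 of 35556 probe sets, 21789 of them with 1 gene and 1621 with several.

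From the deposited log2 values, limma 3.58.1 in R 4.3.3 fitted a mean per group over all 12 arrays (lmFit, eBayes), and p-values were adjusted by Benjamini-Hochberg over the 23410 probe sets. A gene was called at an adjusted p under 0.05. Comparisons were SE against control in heterozygous mice, pilocarpine against control in mutants, mutant controls against heterozygous ones, and the mutant response less the heterozygous response, which shares its arrays with the others. Rbm3 and Cirbp were tested in heterozygous mice only. Counts are over the 7 chaperones with a probe set of their own, since Hspa1b has none. Rounding was done after the fits, which were tested on simulated data. Named genes were the members, up to 4 per list with the largest change among those called in each genotype, the 5 genes nearest to Rbm3 and to Cirbp, and Xist and Srf as checks. The members and lists were chosen with earlier results of these data known. Alternatives varied the variance prior, a filter on dim probe sets (mean of at least 6), centring, normalization, the groups fitted, array weights, the probe sets tested, Xist, a replicate block, moderation, the probe set per gene and each array left out. Gene lists were summarised by counts and medians alone. Promoter windows came from RefSeq, and tables and plots were made in Python 3.11.15 with matplotlib 3.10.9.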

Additional observations from a re-analysis of the deposited data

Results flagged for a closer look

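Responses that differed between mutants given pilocarpine and heterozygous SE are listed here, with no explanation weighed. Values are the mutant log2 response less the heterozygous one, in which genotype and seizure state differ together. Among the members the values were −0.72 for Hspa1a, −0.73 for the probe set shared by Hspa1a and Hspa1b, and 0.37 for Hsph1, each past an adjusted p under 0.05 in limma. The Hsph1 call was lost without any of 7 of the 12 arrays. Rbm3 stood at −0.87, because every SE array lay above the heterozygous control mean and every array of mutants given pilocarpine lay below the mutant control mean. That difference was not tested, since Rbm3 was chosen on the mutant arrays. Among related chaperones and cochaperones the differences were −0.41 for Hspa14 (lost without any of 9 arrays), −0.89 for Dnajb4 and −0.78 for Bag3. In the unfolded protein response they were −2.43 for Ppp1r15a, −0.59 for Atf4 and −0.33 for Herpud1, the last lost without any of 8 of the 12 arrays (adjusted p 0.0537 to 0.0985). Among splicing genes they were −1.24 for Clk1, −0.53 for Clk4, −0.40 for Srsf3 (lost without any of 2 arrays) and −0.65 for Rbmx.

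A signal outside the main measurement came from 2 probe sets that Hspa8 shares with the small nucleolar RNAs Snord14c and Snord14d, which lie in introns of Hspa8. The brighter of them stood at 7.13, 7.35 and 6.95 in heterozygous controls and at 9.01, 8.22 and 8.44 in SE. The difference was 1.42 (standard error 0.173, limma, adjusted p = 0.00015), while the Hspa8 probe set itself differed by 0.0055. In mutant controls it stood at 7.83, 7.63 and 7.37 and with pilocarpine at 7.21, 7.29 and 7.37 (−0.32, adjusted p = 0.438), and the responses differed by −1.73 (adjusted p = 0.00149). Mutant controls stood above heterozygous controls by 0.47 (limma, adjusted p = 0.492), which enters this difference in response.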

How the results depend on the processing

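No called value changed direction under any alternative run. The count of chaperones higher in heterozygous SE (2) was 4 in a fit of the compared groups alone and 4 with array weights, and 2 to 3 with each array left out. The count lower in SE (0) was 1 in a fit of the compared groups, and 0 with each array left out. The count higher in mutants given pilocarpine (1) was 0 in a fit of the compared groups, 3 with array weights and 1 to 2 with each array left out. The count with a larger response in mutants (1, Hsph1) was 0 with median centred arrays, 0 without moderation, 0 with the replicate block and 0 to 1 with each array left out. The count with a smaller response (1, Hspa1a) was 0 without moderation and 1 to 2 with each array left out. It was 2 with the shared Hspa1a/Hspa1b probe set counted as well, an alternative chosen after seeing the data. The compared-groups fit gives no difference between responses. Among the functional lists, the count of endoplasmic reticulum genes higher in mutants given pilocarpine (2) ranged from 0 to 5 over all alternatives, and that of splicing genes higher in SE (8) from 5, without heterozygous control replicate 1, to 9. Rbm3 in heterozygous SE kept its value (0.277) and passed in a fit of the compared groups, and ranged from 0.248 to 0.315 with each array left out. Cirbp did not pass under any alternative (adjusted p 0.523 to 0.981).

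Animal numbers are shared by the groups and were not treated as pairs. Of 18 pairs with the same number, 5 had deviations from their group means correlated above 0.1 (r from −0.312 to 0.323). Deviations from a mean of 3 arrays depend on each other, so these values cannot settle whether the numbers pair mice. With the replicate block, 2 chaperones were higher in SE, 1 was higher in mutants given pilocarpine, 0 had a larger and 1 a smaller response, and Rbm3 in SE had an adjusted p of 0.147. The cause of these changes was not tested. With 3 arrays per group, small differences such as that of Cirbp in SE were not detectable.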

Other observations

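The dimmest of the 3 probe sets that name Hspa8 alone varied within groups, as values only. It stood at 13.33, 12.40 and 13.29 in heterozygous controls, at 13.36, 13.36 and 12.25 in SE, at 12.31, 11.91 and 13.74 in mutant controls and at 13.60, 13.49 and 13.40 in mutants given pilocarpine. Its range was 1.83 log2 units within mutant controls and 0.20 within mutants given pilocarpine, where that of the next brighter of them was 0.15 and 0.12. The Hspa8 values of the report use the brightest probe set.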
